A study of Mus musculus with 12 samples.

Results

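The 10 genes described here belong to NLRC5 and the pathway of MHC class I antigen presentation: Nlrc5, B2m, H2-K1, H2-D1, Tap1, Tap2, Tapbp, Psmb8, Psmb9 and Psmb10. The rule lists them by symbol and uses no measured value, though earlier results of these data were known when they were listed, and all 10 were found among the 24421 gene symbols of the count table. Of these, 7 passed the filter on low counts and were tested, while Tap1, Psmb8 and Psmb9 did not pass it. Nlrc5 passed only through the cells with the control guide, so its difference between the lines is given as a description, without a test.

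KP cells, which are mouse lung adenocarcinoma cells in culture, were sequenced to ask how loss of BACH1 or FEM1B changes gene expression related to ferroptosis. BACH1 is a heme-binding repressor of transcription, and FEM1B is a substrate receptor of a CUL2 ubiquitin ligase. The 12 libraries form 4 groups of 3 biological replicates per the design text: sgBACH1_siFEM1B, sgBACH1_siCTRL, sgCTRL_siFEM1B and sgCTRL_siCTRL. The sgBACH1 cells carry a CRISPR/Cas9 knockout of Bach1 and are called knockout cells below, the sgCTRL cells carry a control guide, and siFEM1B or siCTRL siRNA was present for 48 hours. All groups share the labelled Trp53flox/flox genotype, in which the p53 gene is flanked for deletion. The labels name a single control line and a single knockout line, so the loss of BACH1 and other differences between these lines cannot be told apart. Off-target effects of the siRNA cannot be told apart from loss of FEM1B either. These are bulk libraries, in which fewer cells expressing a gene and less RNA per cell cannot be told apart.

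MHC class I molecules show peptides from the cell interior to CD8 T cells. The proteasome cuts proteins into peptides, and in its immunoproteasome form the inducible subunits Psmb8, Psmb9 and Psmb10 take the places of Psmb5, Psmb6 and Psmb7. The transporter of Tap1 and Tap2 carries the peptides into the endoplasmic reticulum. There tapasin, the product of Tapbp, helps to load them onto a heavy chain such as H2-K1 or H2-D1, which pairs with beta-2-microglobulin, the product of B2m. NLRC5 is an NLR-family protein that enters the nucleus and activates class I genes together with the DNA-binding factors RFX, CREB/ATF and NF-Y, and interferon gamma induces it.

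The proximal promoters of 4 of these genes are shown because B2m and both heavy chains share an arrangement of sites to which such factors are known to bind, while Tap1 is a gene with almost no counts. Each runs from 250 bases before to 50 bases after a RefSeq transcript start on GRCm38.p6, the assembly that mm10 denotes. Promoters of 8 of the 10 genes were matched in the RefSeq table, and those of Nlrc5 and Tap2 are not shown. B2m is at chr2:122147437-122147736 on the plus strand, H2-K1 at chr17:34000298-34000597 on the minus strand, for the first of its 2 listed starts, H2-D1 at chr17:35262844-35263143 on the plus strand, and Tap1 at chr17:34187306-34187605 on the plus strand. Capitals mark matches, on either strand, to CCAAT (the NF-Y core), TGACG (a CREB/ATF core), GAAA repeated after any 2 bases (interferon-stimulated response element), TTCNNNGAA (STAT site), GGGNNTTCC (NF-kB site) and TGACNNNGC (antioxidant response core).
B2m: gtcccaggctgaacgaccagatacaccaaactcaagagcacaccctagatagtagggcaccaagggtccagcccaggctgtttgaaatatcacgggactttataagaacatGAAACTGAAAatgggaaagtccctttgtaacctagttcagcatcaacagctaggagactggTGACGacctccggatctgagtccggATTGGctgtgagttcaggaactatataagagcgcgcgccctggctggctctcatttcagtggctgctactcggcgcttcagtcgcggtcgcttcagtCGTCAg
H2-K1: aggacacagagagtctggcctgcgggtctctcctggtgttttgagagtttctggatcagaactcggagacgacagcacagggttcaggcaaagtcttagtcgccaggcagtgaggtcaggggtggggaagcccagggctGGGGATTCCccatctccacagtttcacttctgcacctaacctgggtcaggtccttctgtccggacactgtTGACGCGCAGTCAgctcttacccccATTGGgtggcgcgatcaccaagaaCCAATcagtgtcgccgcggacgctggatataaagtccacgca
H2-D1: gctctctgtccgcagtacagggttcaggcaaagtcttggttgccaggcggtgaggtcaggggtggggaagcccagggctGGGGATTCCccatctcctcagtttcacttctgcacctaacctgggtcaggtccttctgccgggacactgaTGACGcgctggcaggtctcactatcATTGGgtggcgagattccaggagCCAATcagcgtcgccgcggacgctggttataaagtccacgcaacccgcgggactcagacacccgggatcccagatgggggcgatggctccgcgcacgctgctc
Tap1: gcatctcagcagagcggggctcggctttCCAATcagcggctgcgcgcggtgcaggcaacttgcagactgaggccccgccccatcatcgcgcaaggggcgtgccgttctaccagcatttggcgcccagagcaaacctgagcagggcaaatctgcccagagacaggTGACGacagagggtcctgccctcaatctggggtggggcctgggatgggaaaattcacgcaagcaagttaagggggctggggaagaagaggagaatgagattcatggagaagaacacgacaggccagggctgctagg

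CCAAT was found in 6 of the 8 promoters and in 37.4% of all 32817 promoters of the table, and TGACG in 5 of the 8 and 20.8% of all. The interferon-stimulated response element was matched in B2m (3.43% of all promoters), TTCNNNGAA in Psmb8 (8.29%), and GGGNNTTCC in H2-K1 and H2-D1 (5.82%). TGACNNNGC was matched in H2-K1 (12.4%), where it overlaps the TGACG match. In B2m, H2-K1 and H2-D1, TGACG is followed by ATTGG, the reverse complement of CCAAT, with 25 bases between the first bases of the matches. That spacing, which was noted after the matches had been placed, was present on either strand in 31 of the 32817 promoters (0.0945%). A match describes letters in these windows and is not a binding site by itself. The Tap1 window spans the divergent starts of Tap1 and Psmb9 and holds both a CCAAT and a TGACG match, but not at that spacing.

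The libraries held 16539168 to 22196999 counts, so that 1 count was worth 0.0446 to 0.0604 CPM (the normalised read count, scaled by library total and TMM factor). Bach1 was at 40.0, 39.3 and 40.5 CPM in knockout cells with siFEM1B, 31.0, 27.6 and 29.7 CPM in knockout cells with siCTRL, 42.3, 44.1 and 37.7 CPM in control cells with siFEM1B and 29.6, 33.6 and 31.0 CPM in control cells with siCTRL. The knockout and control groups overlapped under each siRNA, so the transcript does not check the knockout, which a guide RNA can produce without loss of mRNA. Fem1b was at 46.2 to 54.5 CPM with siFEM1B against 136 to 141 CPM with siCTRL in knockout cells, and at 43.0 to 58.0 CPM with siFEM1B against 157 to 167 CPM with siCTRL in control cells. All 6 epithelial markers had counts in each group, and they summed to 6658 to 7761 CPM over the 12 libraries, mostly Krt8, Krt18 and Krt19. Epcam averaged 1.53 and 0.309 CPM in knockout cells with siFEM1B and siCTRL, but 0.0362 and 0.0314 CPM in control cells. Cdh1 averaged 615 and 645 against 400 and 322 CPM in the same order. Cldn4 went the other way, at 1.07 and 0.399 against 5.12 and 1.93 CPM. Of the alveolar type 2 markers, Sftpa1 and Nkx2-1 were at 0 in every library, and the 5 markers summed to 0.649 to 2.32 CPM. Of 11 leukocyte markers, Cd3e and Adgre1 were at 0 in every library.

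Knockout cells had lower transcript levels than control cells for most of the listed class I genes that could be tested. Under siFEM1B, 5 of the 6 tested genes other than Nlrc5 were lower in knockout cells, where 26.4% of all 13281 tested genes were, 0 were higher, where 28.2% of all were, and H2-K1 was not called. A gene was called at an edgeR Benjamini-Hochberg adjusted p under 0.05 over all tested genes. The median log2 fold change of the 6 genes was −0.98, against 0.01 over all tested genes. Under siCTRL, 5 of the 6 were lower (26.3% of all genes) and 1, H2-K1, was higher (24.2% of all), with a median of −0.78, against −0.02 over all. These counts cover the genes that passed the filter and not all 10. Summed fibroblast markers were also lower in knockout cells, at 8.58 to 11.2 CPM against 18.2 to 24.6 CPM in control cells over both siRNAs. Dcn and Lum did not pass the filter and were near absent in both lines. They were at 0 in knockout cells. In control cells with siFEM1B and siCTRL, Dcn averaged 0.120 and 0.0152 CPM and Lum 0.163 and 0.128 CPM. Most of the sum was Col1a1. Another of the 5 markers, Pdgfra, averaged 0.712 and 0.568 CPM in knockout cells with siFEM1B and siCTRL, against 0.419 and 0.0800 CPM in control cells. These levels are near the count filter, so this difference is a description. The part of these markers in the results was not tested.

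**Figure D1:**
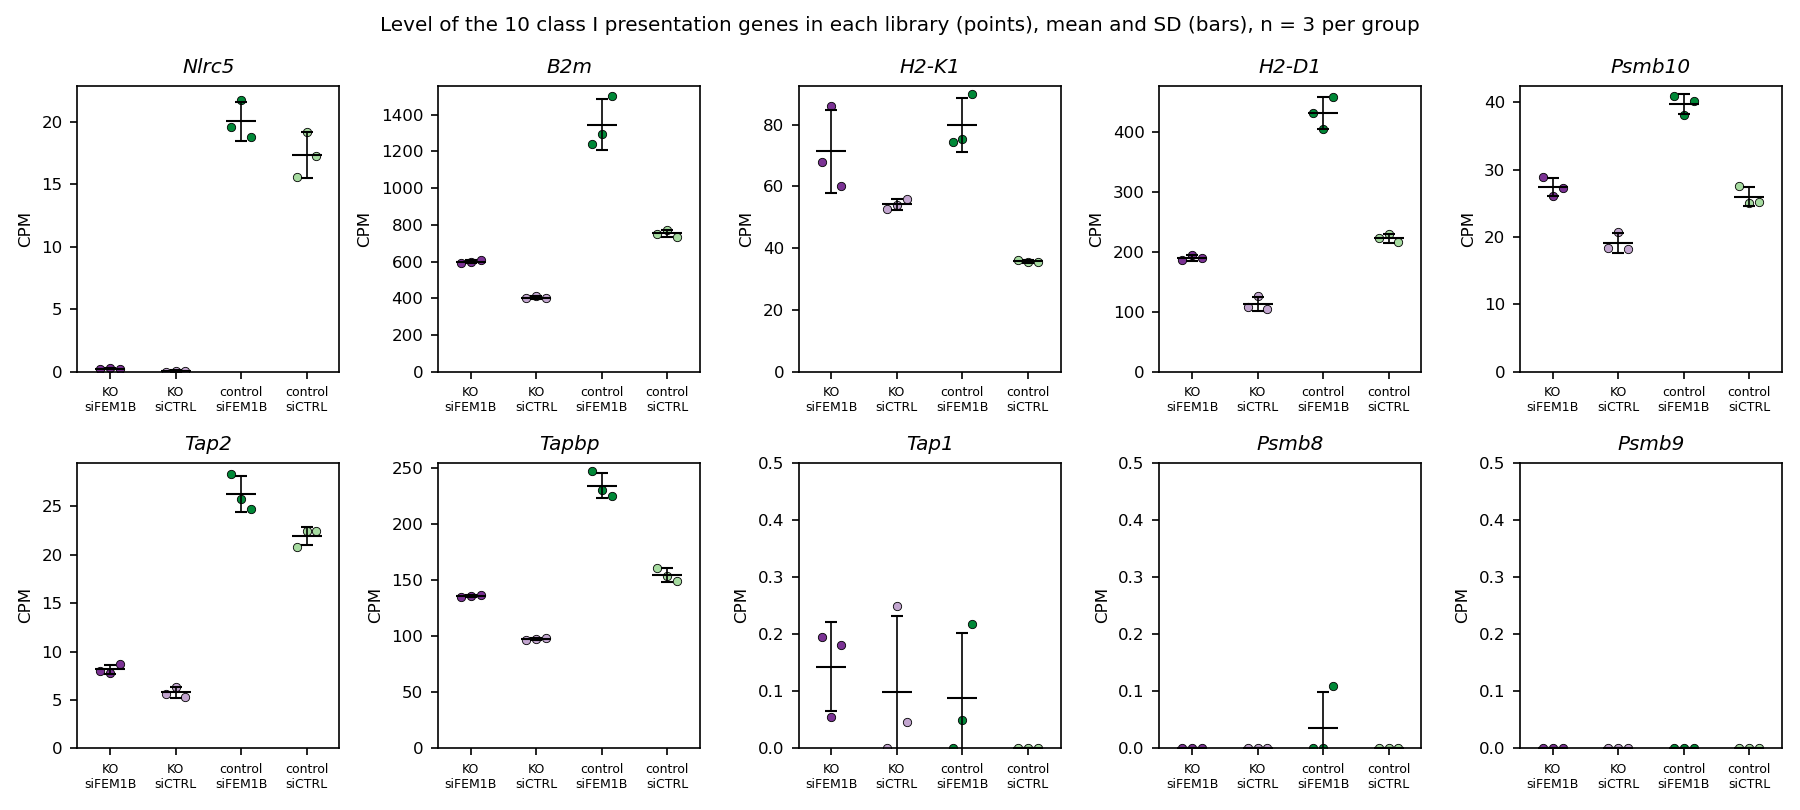
Each panel plots CPM (y axis, linear, own scale) in the 3 libraries of each of 4 groups (x axis), with points for libraries and bars for the mean and SD. Nlrc5 lies at 0 to 0.270 CPM in the knockout cells and 15.6 to 21.8 CPM in the control cells, B2m reaches 1501 CPM, and Psmb9 is at 0 in every library.

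Nlrc5, the activator of class I genes, was nearly absent from the knockout cells. The gene spans chr8:94434335-94527272 on the plus strand and received 5, 5 and 4 counts in knockout cells with siFEM1B and 0, 2 and 2 counts in knockout cells with siCTRL. In control cells it received 439, 446 and 346 counts with siFEM1B and 342, 407 and 344 counts with siCTRL. The knockout libraries lay far below every control library, and those with siCTRL each had under 3 counts, the limit that a count of 0 allows. Under siFEM1B, the mean was 0.251 ± 0.0161 CPM in knockout cells and 20.03 ± 1.55 CPM in control cells (SD, n = 3 each). The summed counts, 14 in knockout cells against 1231 in control cells, differed 79.8-fold after scaling, with an exact 95% interval of 47.4 to 146 that covers counting error only. Under siCTRL, the mean was 0.0641 ± 0.0556 CPM in knockout cells and 17.3 ± 1.81 CPM in control cells. There the summed counts of 4 in knockout cells and 1093 in control cells differed 263-fold (102 to 965).

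The tested genes around Nlrc5 did not share its loss of counts. Of 12 RefSeq genes within 250 kb, 7 were tested, and their log2 fold changes in knockout over control cells under siCTRL ran between −0.38 and 0.65. Rspry1 was lower, at −0.38 ± 0.07 (approximate SE; edgeR adjusted p = 0.000155), as was Nup93, a nuclear pore subunit, at −0.24 ± 0.05 (0.000769). Cx3cl1, which encodes the chemokine fractalkine, was higher, at 0.65 ± 0.08 (2.00e-06). Among the untested neighbours, the lncRNA gene 9330175E14Rik, which overlaps the start of Nlrc5, had 13 counts in all and 0 in knockout cells. It averaged 0.202 CPM in control cells with siFEM1B and 0.0157 CPM in those with siCTRL. These counts are too few to show a difference between the lines. The tested neighbours lie within the range of most genes of the table, and Nlrc5 does not: 5% of all tested genes lay below −0.90 and 5% above 1.15.

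**Figure D2:**
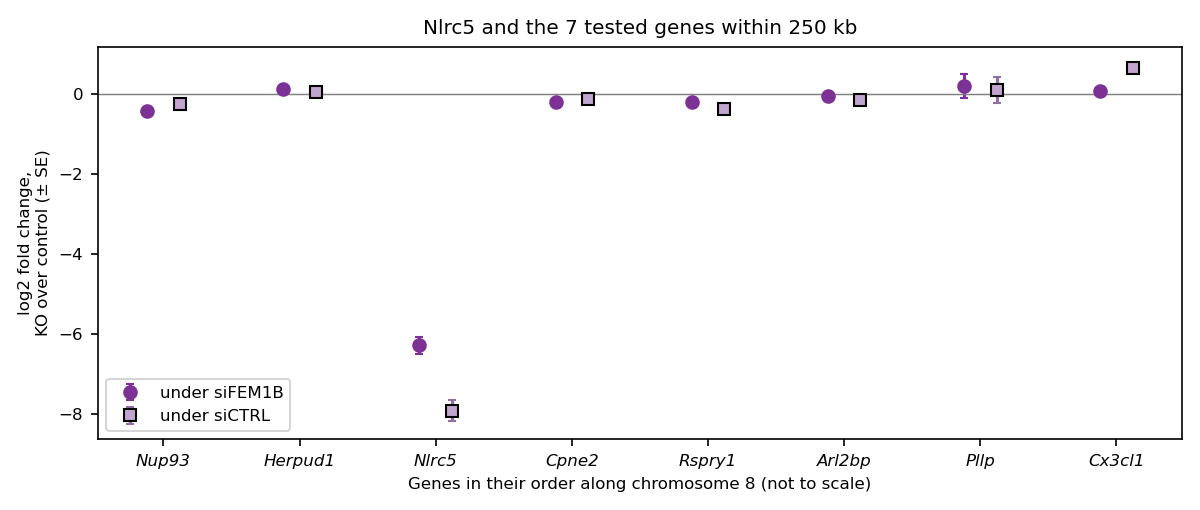
The log2 fold change of knockout over control cells with its approximate SE (y axis) is plotted for Nlrc5 and the 7 tested genes within 250 kb, in their order on chromosome 8 (x axis, not to scale), with circles for siFEM1B and squares for siCTRL. The fitted values of Nlrc5, at −6.28 and −7.91, are a description, and under siCTRL the neighbours lie between −0.38 and 0.65.

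B2m, which encodes the light chain of every classical class I molecule, stood in the same order in every comparison of its groups. It was at 590.2, 600.0 and 606 CPM in knockout cells with siFEM1B, 399, 414 and 399.6 CPM in knockout cells with siCTRL, 1239.7, 1294 and 1501 CPM in control cells with siFEM1B and 752, 775 and 737 CPM in control cells with siCTRL. No 2 of the 4 groups overlapped, with knockout cells below control cells and siFEM1B above siCTRL. The log2 fold change of knockout over control cells was −1.17 ± 0.06 under siFEM1B (edgeR adjusted p = 2.55e-12) and −0.90 ± 0.06 under siCTRL (1.29e-10). B2m lies at chr2:122147687-122153082 on the plus strand.

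H2-D1, a classical heavy chain gene at chr17:35263094-35267497 on the plus strand, followed B2m. Its level was 187, 195 and 189 CPM in knockout cells with siFEM1B, 108, 126 and 105 CPM in knockout cells with siCTRL, 432, 406 and 459.5 CPM in control cells with siFEM1B and 223, 231 and 216 CPM in control cells with siCTRL. The groups did not overlap, and all 6 knockout libraries were below all 6 control libraries. Knockout over control gave −1.18 ± 0.06 under siFEM1B (edgeR adjusted p = 6.09e-12) and −0.98 ± 0.06 under siCTRL (1.27e-10). Within single libraries, H2-D1 stood at 31.2 to 32.6 counts per 100 of B2m in knockout cells with siFEM1B, 26.3 to 30.4 in knockout cells with siCTRL, 30.6 to 34.8 in control cells with siFEM1B and 29.3 to 29.8 in control cells with siCTRL. These ratios overlapped between knockout and control cells under each siRNA.

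H2-K1, the other classical heavy chain gene measured, at chr17:33996012-34000619 on the minus strand, did not follow B2m and H2-D1. It was at 67.8, 86.0 and 60.05 CPM in knockout cells with siFEM1B, 52.6, 54.1 and 55.9 CPM in knockout cells with siCTRL, 74.4, 75.3 and 89.8 CPM in control cells with siFEM1B and 36.3, 35.6 and 35.5 CPM in control cells with siCTRL. Under siCTRL every knockout library was above every control library, whereas under siFEM1B the genotypes overlapped. H2-K1 was higher in knockout cells under siCTRL, with a log2 fold change of 0.60 ± 0.10 (edgeR adjusted p = 5.23e-05). Under siFEM1B the value was −0.16 ± 0.10 and was not called (edgeR adjusted p = 0.166), but it became −0.32 and was called without replicate 2 of the knockout cells with siFEM1B (0.00217), and −0.30 with the median of each chromosome removed (0.0144). That library had the largest H2-K1 value of its group, 86.0 CPM.

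The balance between the heavy chains therefore differed between the lines. H2-K1 had 31.7 to 44.0 counts per 100 of H2-D1 in knockout cells with siFEM1B, 42.9 to 53.2 in knockout cells with siCTRL, 17.2 to 19.5 in control cells with siFEM1B and 15.4 to 16.4 in control cells with siCTRL. All 6 knockout libraries lay above all 6 control libraries in this ratio. The heavy chains are near-identical in places: of the 50-base stretches in their GENCODE M21 transcripts, 9.63% of those of H2-K1 and 12.8% of those of H2-D1 also occur in transcripts of other genes. How the authors' counting treated reads that fit several genes is not given in the sources used here, so the values of both are uncertain to that extent. The table also lists H2-L, a symbol found in neither annotation used here, with 56.7 to 59.8 counts per 100 of H2-D1 in knockout cells with siFEM1B, 66.1 to 68.6 in knockout cells with siCTRL, 66.4 to 68.1 in control cells with siFEM1B and 67.3 to 70.5 in control cells with siCTRL. H2-L was lower in knockout cells, at −1.40 ± 0.07 under siFEM1B (edgeR adjusted p = 1.85e-12) and −1.02 ± 0.07 under siCTRL (2.99e-10). Its rise with siFEM1B in knockout cells less that in control cells was −0.39 ± 0.10 (edgeR adjusted p = 0.0255), a call that was kept in 14 of 18 alternatives and lost without replicate 3 of the control cells with siCTRL (0.0705), replicate 2 of the knockout cells with siCTRL (0.0539) or replicate 1 or 3 of those with siFEM1B (0.0796 and 0.0764). Whether H2-L and H2-D1 counts come from the same reads was not tested.

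**Figure D3:**
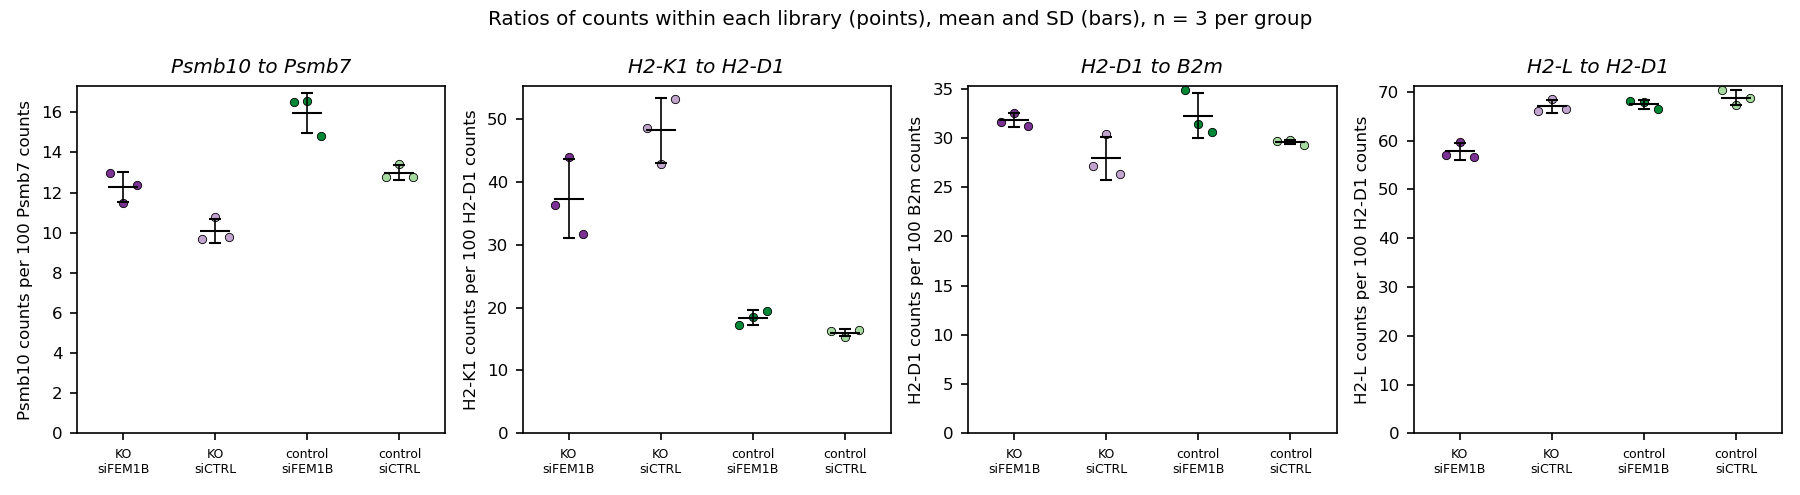
Counts of one gene per 100 counts of another in the same library (y axes, linear, from 0) are plotted for the 4 groups (x axes), with points for libraries and bars for the mean and SD, n = 3. H2-K1 per 100 H2-D1 lies at 31.7 to 53.2 in the knockout cells and 15.4 to 19.5 in the control cells, while H2-D1 per 100 B2m overlaps between the lines.

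Tap2 and Tapbp, the tested genes of peptide transport and loading among the 10, were lower in knockout cells. Tap2, the transporter subunit encoded at chr17:34204479-34216321 on the plus strand, was at 7.95, 7.83 and 8.69 CPM in knockout cells with siFEM1B, 5.63, 6.39 and 5.31 CPM in knockout cells with siCTRL, 28.4, 25.7 and 24.7 CPM in control cells with siFEM1B and 20.8, 22.4 and 22.5 CPM in control cells with siCTRL. Every knockout library was below every control library. Of the 6 tested genes other than Nlrc5, Tap2 had the lowest log2 fold changes in knockout over control cells, −1.69 ± 0.10 under siFEM1B (edgeR adjusted p = 3.01e-11) and −1.92 ± 0.10 under siCTRL (7.04e-12). Tapbp, encoding tapasin at chr17:33919478-33929290 on the plus strand, was at 135, 136 and 137 CPM in knockout cells with siFEM1B, 97.0, 97.4 and 98.2 CPM in knockout cells with siCTRL, 248, 231 and 225 CPM in control cells with siFEM1B and 161, 154 and 149 CPM in control cells with siCTRL. Its groups did not overlap either, and the log2 fold changes were −0.79 ± 0.05 under siFEM1B (edgeR adjusted p = 1.21e-10) and −0.67 ± 0.05 under siCTRL (1.65e-09).

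Tap1, Psmb8 and Psmb9, which lie side by side in the class II region of chromosome 17, had almost no counts in any group, in control cells with Nlrc5 as in knockout cells. Tap1, the partner of Tap2 in the transporter, received 4, 1 and 3 counts in knockout cells with siFEM1B, 0, 5 and 1 in knockout cells with siCTRL, 0, 1 and 4 in control cells with siFEM1B and 0, 0 and 0 in control cells with siCTRL. Psmb8, an inducible proteasome subunit, received 2 counts, in replicate 3 of the control cells with siFEM1B, and 0 in the other 11 libraries. Psmb9, another inducible subunit, had 0 counts in all 12 libraries, which allows a level of up to 0.0125 CPM over their 240950638 counts, or 0.134 to 0.181 CPM in a single library. At these depths no difference between groups was detectable for these genes. The 12 libraries together held 19 Tap1 counts, and 3 libraries had more than 3.

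The low counts were limited on each side by genes with clear signal. Psmb9 is at chr17:34182030-34187330 on the minus strand, Tap1 at chr17:34187556-34197225 and Psmb8 at chr17:34198195-34201454 on the plus strand, with 225 bases between Psmb9 and Tap1, 969 between Tap1 and Psmb8 and 3024 between Psmb8 and Tap2 in RefSeq. On the near side of Psmb9, 21800 bases away, H2-DMb1, a chaperone subunit of class II loading, had 32 to 146 counts per library. On the other side Tap2 had 107 to 636 counts, and beyond it H2-Ob had 0. Transcripts of Psmb9 and Tap1 overlap by 212 bases in GENCODE M21, on opposite strands, and the strand setting of the counting is not given in the sources used here. Tap1 and Psmb8 share under 1% of their 50-base stretches with other genes (0.442% and 0.227%), and Psmb9 shares none. H2-DMb1 was lower in knockout than in control cells, at −1.55 ± 0.17 under siFEM1B (edgeR adjusted p = 2.05e-07) and −1.37 ± 0.17 under siCTRL (1.08e-06).

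**Figure D4:**
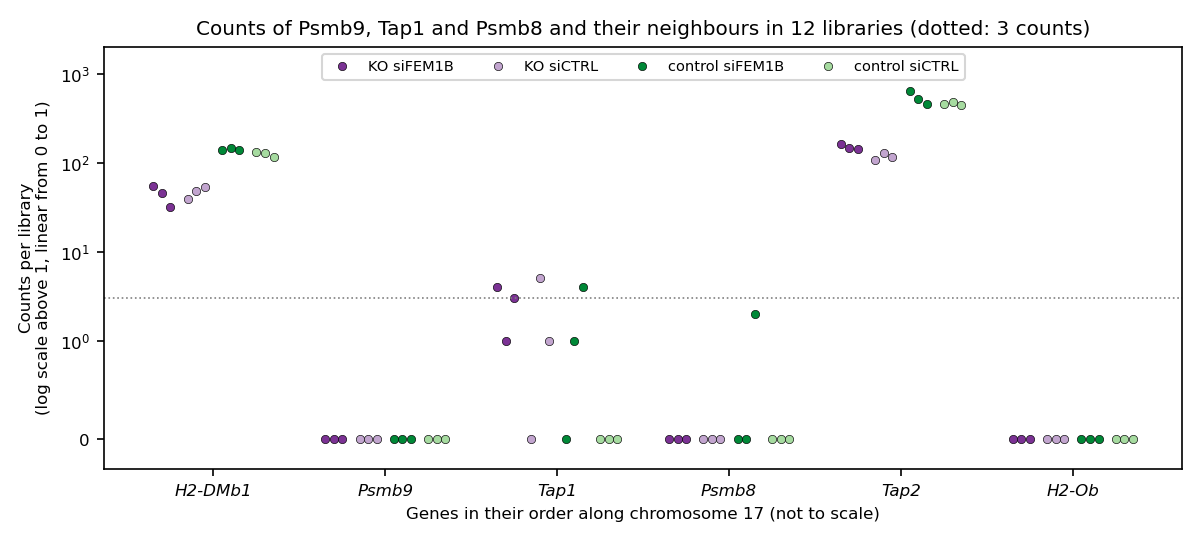
Counts in each of the 12 libraries (y axis, log scale above 1 and linear from 0 to 1) are plotted for Psmb9, Tap1 and Psmb8 and their neighbours in their order along chromosome 17 (x axis, not to scale), with 3 counts as a dotted line. H2-DMb1 at 32 to 146 counts and Tap2 at 107 to 636 counts flank Psmb9 at 0, Tap1 at 0 to 5 and Psmb8 at 0 to 2.

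Psmb10, the third inducible proteasome subunit, was the single one of them with measurable levels, and it lies on chromosome 8, at chr8:105935728-105938392 on the minus strand. It was at 28.9, 26.1 and 27.3 CPM in knockout cells with siFEM1B, 18.4, 20.8 and 18.3 CPM in knockout cells with siCTRL, 40.9, 38.1 and 40.2 CPM in control cells with siFEM1B and 27.6, 25.1 and 25.2 CPM in control cells with siCTRL. Under each siRNA all knockout libraries were below all control libraries, while knockout cells with siFEM1B and control cells with siCTRL overlapped. The log2 fold change of knockout over control cells was −0.53 ± 0.08 under siFEM1B (edgeR adjusted p = 8.40e-06) and −0.44 ± 0.08 under siCTRL (0.000135).

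Set against Psmb7, the constitutive subunit whose place it takes, Psmb10 had 13.0, 11.5 and 12.4 counts per 100 Psmb7 counts in knockout cells with siFEM1B, 9.69, 10.8 and 9.80 in knockout cells with siCTRL, 16.5, 16.5 and 14.8 in control cells with siFEM1B and 12.8, 13.4 and 12.8 in control cells with siCTRL. The log2 ratio in knockout minus control cells was −0.38 under siFEM1B and −0.37 under siCTRL, and in siFEM1B minus siCTRL 0.28 in knockout cells and 0.29 in control cells. The groups did not overlap in any of these 4 comparisons. The two-sided exact permutation p was 0.1 for each, which is the smallest that 3 against 3 libraries can give, and adjusted over the 4 it remains 0.1. With 3 counts as the limit, Psmb8 was at or below 0.182 to 0.273 per 100 Psmb5 counts and Psmb9 at or below 0.0624 to 0.0923 per 100 Psmb6 counts, depending on the library.

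FEM1B siRNA raised class I transcripts in both lines. In knockout cells all 6 tested genes other than Nlrc5 rose (21.9% of all tested genes did) and 0 fell (19.8% of all), with a median log2 fold change of 0.51, against 0.02 over all genes. In control cells the same 6 rose (22.1% of all) and 0 fell (22.9% of all), with a median of 0.72, against 0 over all. The comparisons of siRNA and of genotype share groups, so their values are set side by side and not correlated. Summed leukocyte markers were at 0.582 to 1.51 CPM in knockout cells with siFEM1B against 0.185 to 0.599 CPM with siCTRL, and at 5.84 to 7.27 CPM in control cells with siFEM1B against 0.752 to 1.46 CPM with siCTRL. Of the 11 markers, 6, 5, 7 and 6 were detected in these groups. Cd3e and Adgre1 were at 0 throughout, and Cd74, the invariant chain of class II, was the one leukocyte marker that passed the filter. Cd74 averaged 0.822 CPM with siFEM1B against 0.118 CPM with siCTRL in knockout cells, where Ptprc, Lyz2 and Csf1r had lower means with siFEM1B, and 5.89 against 0.780 CPM in control cells. The part of these markers in the rise was not tested.

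In knockout cells H2-D1 had the largest rise with siFEM1B of the 6 genes. H2-D1 rose by 0.75 ± 0.06 (edgeR adjusted p = 3.39e-08), B2m by 0.57 ± 0.06 (3.72e-07), Psmb10 by 0.52 ± 0.08 (3.99e-05), Tap2 by 0.50 ± 0.12 (0.00185), Tapbp by 0.48 ± 0.05 (5.95e-07) and H2-K1 by 0.40 ± 0.10 (0.00273). Nlrc5 had 14 counts in the 3 libraries with siFEM1B against 4 in those with siCTRL, a ratio of 3.81 with an exact 95% interval of 1.20 to 15.9. Its call, at 1.84 ± 0.67 (edgeR adjusted p = 0.0323), was lost in a fit of only these 6 libraries (0.101), without replicate 1 with siCTRL (0.142) and without replicate 1, 2 or 3 with siFEM1B (0.0628, 0.0714 and 0.0557).

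The heavy chains and B2m had the largest rises in control cells. There the log2 fold change of siFEM1B over siCTRL was 1.15 ± 0.10 for H2-K1 (edgeR adjusted p = 2.28e-08), 0.95 ± 0.06 for H2-D1 (7.46e-10) and 0.83 ± 0.06 for B2m (2.10e-09). Psmb10 rose by 0.61 ± 0.08 (2.64e-06) and Tapbp by 0.60 ± 0.05 (1.87e-08). Tap2 rose by 0.26 ± 0.09 (0.0216), a call that was lost without replicate 1 of the control cells with siCTRL (0.0829) or replicate 1 of those with siFEM1B (0.0962). Nlrc5 itself was at 19.6, 21.8 and 18.8 CPM with siFEM1B and 15.6, 19.2 and 17.3 CPM with siCTRL. These overlapped, and the difference of 0.21 ± 0.11 was not called (edgeR adjusted p = 0.14).

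The FEM1B siRNA effect differed between the lines for H2-K1. The rise in knockout cells less the rise in control cells was −0.76 ± 0.14 on the log2 scale (edgeR adjusted p = 0.00356). H2-K1 was the 1 gene of the 6 other than Nlrc5 called lower in this interaction, where 2.6% of all tested genes were, and 0 were called higher, where 3.48% were. Leaving out single libraries and the other settings tried left the H2-K1 value between −0.91 and −0.65 and called in all 18. For B2m the interaction was −0.27 ± 0.08 and was not called (edgeR adjusted p = 0.0592), but it was called in 7 of the 18 alternatives, over which its value ran from −0.35 to −0.21. For H2-D1 the value was −0.20 ± 0.09 (edgeR adjusted p = 0.18), for Tapbp −0.12 (0.33), for Psmb10 −0.09 (0.663) and for Tap2 0.23 (0.358). Those not called are not shown to respond alike in the lines.

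**Figure D5:**
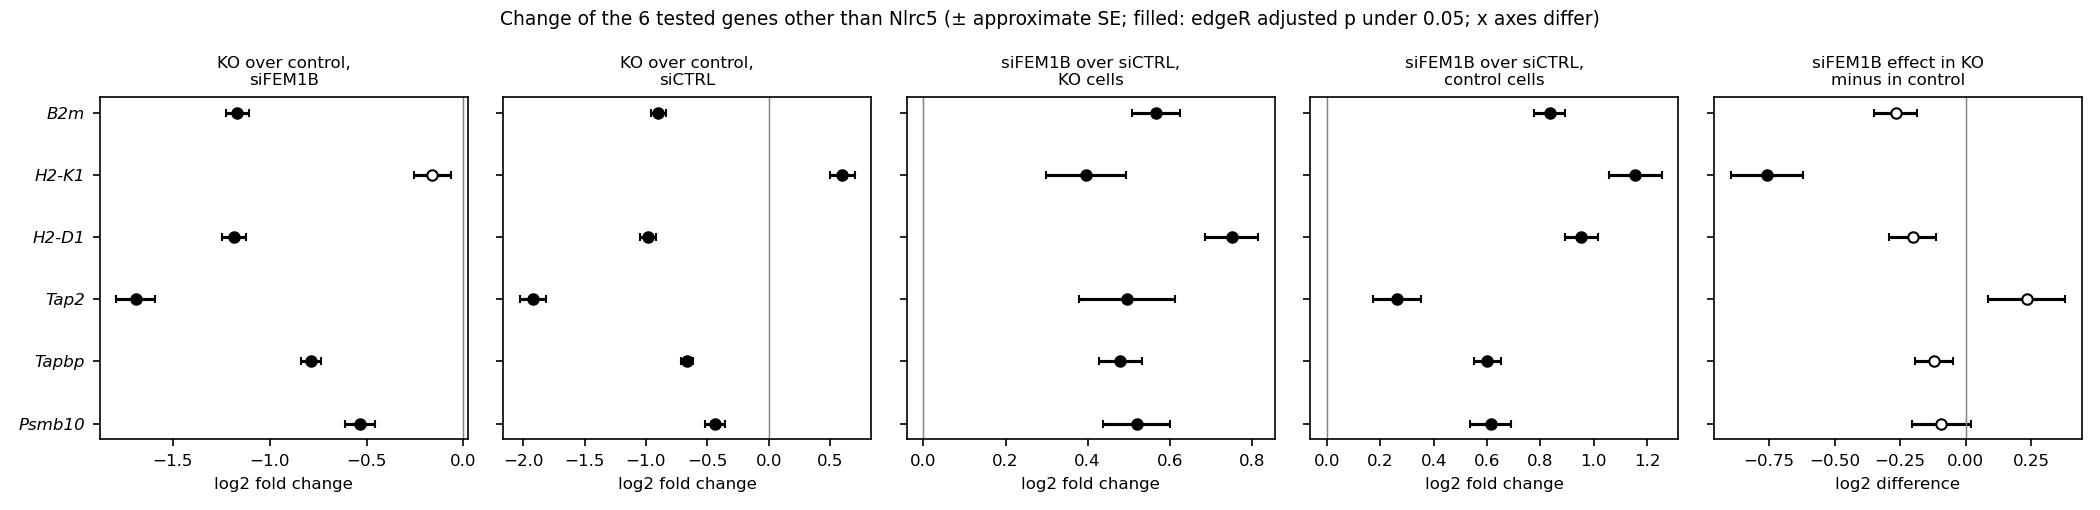
The log2 fold change with its approximate SE (x axes, which differ in range) is plotted for the 6 tested genes other than Nlrc5 (rows) in 4 comparisons and, at the right, for the siFEM1B effect in knockout minus control cells, with filled points for an edgeR adjusted p under 0.05. In the second panel H2-K1 is at 0.60, on the other side of 0 from the other genes, and H2-K1 at −0.76 has the 1 filled point of the last panel.

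Per length of the gene's exons (GENCODE M21, CPM per kilobase), B2m had the highest level of the 10 genes in every group. In control cells with siCTRL the mean levels were 877 for B2m, 106 for H2-D1, 53.4 for Tapbp, 21.6 for H2-K1, 19.8 for Psmb10, 6.36 for Tap2 and 2.13 for Nlrc5, with no overlap between neighbours in this order. In knockout cells with siCTRL they were 470.3 for B2m, 53.9 for H2-D1, 33.7 for Tapbp, 32.7 for H2-K1, 14.6 for Psmb10 and 1.68 for Tap2. There Tapbp at 33.5 to 33.9 and H2-K1 at 31.8 to 33.8 overlapped. With siFEM1B, Tapbp and H2-K1 overlapped in knockout cells, at 46.7 to 47.3 and 36.3 to 52.0, but not in control cells, at 77.8 to 85.4 and 44.9 to 54.2.

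The 5 genes whose profile over the 12 libraries was most like that of Nlrc5 averaged 0.0650 to 1.41 CPM in the knockout groups and 6.92 to 31.0 CPM in the control groups. Likeness was the root mean square difference of centred log2 CPM, which was 0.66 for Usp18, 0.72 for Sprr2h, 0.76 for Cyth4, 0.77 for Rsad2 and 0.89 for Aqp8, where the profile of Nlrc5 itself has a root mean square of 3.20. Usp18, which encodes a protease that removes the interferon-induced modifier ISG15, averaged 0.306 CPM in knockout cells with siFEM1B, 0.0650 in knockout cells with siCTRL, 12.9 in control cells with siFEM1B and 6.94 in control cells with siCTRL. Rsad2, the antiviral enzyme viperin, averaged 0.161, 0.154, 18.5 and 14.4 CPM in the same 4 groups in that order. Aqp8, a water channel gene, had the highest knockout mean of the 5, at 1.41 CPM with siFEM1B. Sprr2h belongs to a family of similar sequences, so its counts are uncertain. For H2-K1, whose profile has a root mean square of 0.46, the nearest were Rnf145 (0.13), Nfkbia (0.14), Hsf4 (0.14), Jarid2 (0.14) and Sowahc (0.15). Nfkbia, which encodes the NF-kB inhibitor IkB-alpha, averaged 78.1 CPM in knockout cells with siFEM1B, 60.5 in knockout cells with siCTRL, 84.1 in control cells with siFEM1B and 45.5 in control cells with siCTRL.

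Of 18 other class I heavy chain genes 7 were tested, and 3 were lower and 0 higher in knockout cells under each siRNA, while 4 were not called. Of all tested genes 26.4% were lower and 28.2% higher under siFEM1B, and 26.3% lower and 24.2% higher under siCTRL. H2-T23, which encodes the non-classical Qa-1 molecule, changed by −0.40 ± 0.06 under siFEM1B (edgeR adjusted p = 1.57e-05) and −0.34 ± 0.06 under siCTRL (0.000199). H2-T22 changed by −0.52 ± 0.06 (8.84e-07) and −0.43 ± 0.06 (1.14e-05) in the same order, and Mr1, which presents vitamin metabolites to MAIT cells, by −1.12 ± 0.26 (0.0012) and −1.50 ± 0.26 (6.25e-05). With siFEM1B, 2 rose and 1 fell in knockout cells (21.9% and 19.8% of all genes), and 2 rose and 0 fell in control cells (22.1% and 22.9% of all). H2-T23 rose by 0.80 ± 0.06 in knockout cells (1.61e-08) and 0.86 ± 0.06 in control cells (2.79e-09). H2-M3, which presents formylated peptides, fell by 0.58 in knockout cells (0.00235). Its promoter is among those with the 25-base spacing described above.

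The genes of peptide trimming, folding and loading outside the list were mixed in direction. Of 16 tested, 4 were higher and 9 lower in knockout cells under siFEM1B (28.2% and 26.4% of all genes), and 3 higher and 3 lower under siCTRL (24.2% and 26.3% of all), with medians of −0.20 and 0.08. Ganab, with the smallest p of the list, was higher, at 0.33 ± 0.04 under siFEM1B (edgeR adjusted p = 2.32e-06) and 0.37 ± 0.04 under siCTRL (6.98e-07). Erap1, the aminopeptidase that trims class I peptides, was lower, at −0.68 ± 0.10 under siFEM1B (edgeR adjusted p = 9.63e-06) and siCTRL (1.02e-05). Tapbpl, which encodes the peptide editor TAPBPR, was lower under siCTRL, at −0.61 ± 0.12 (0.00024). With siFEM1B, 2 rose and 4 fell in knockout cells (21.9% and 19.8% of all) and 5 rose and 2 fell in control cells (22.1% and 22.9% of all). The folding chaperone Canx fell by 0.55 in knockout cells (2.20e-08) and 0.40 in control cells (8.16e-07), while the proteasome activator subunit Psme1 rose by 0.38 (0.000232) and 0.30 (0.00205) in the same order. Calr, the chaperone of the loading complex, rose by 0.46 in control cells (3.29e-05), and its effect in knockout minus control cells was −0.46 ± 0.10 (0.0119). Of 15 genes of the constitutive 20S proteasome, 10 rose and 1 fell with siFEM1B in knockout cells, where 21.9% and 19.8% of all genes did. In control cells 8 rose and 1 fell, where 22.1% and 22.9% of all did. Of these 15, 3 were higher and 5 lower in knockout cells under siFEM1B (28.2% and 26.4% of all), and 1 higher and 4 lower under siCTRL (24.2% and 26.3% of all).

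Factors that act on class I promoters were lower in knockout cells more often than higher. Of 20 tested, 10 were lower and 3 higher under siFEM1B, and 10 lower and 2 higher under siCTRL, against 26.4% and 26.3% of all genes called lower and 28.2% and 24.2% called higher. Under siCTRL, Irf1, an activator of class I genes, changed by −0.53 ± 0.06 (edgeR adjusted p = 5.97e-07) and Irf9, a DNA-binding factor of the interferon response, by −0.77 ± 0.10 (3.48e-06). With siFEM1B, 7 of the 20 rose and 2 fell in knockout cells (21.9% and 19.8% of all), and 8 rose and 3 fell in control cells (22.1% and 22.9% of all). Irf1 rose by 0.56 ± 0.06 in knockout cells (8.39e-07) and 0.35 ± 0.06 in control cells (8.08e-05). Nfyb, an NF-Y subunit, rose by 0.34 ± 0.07 (0.00101) and 0.60 ± 0.07 (2.26e-06) in the same order, while Creb1, which encodes a CREB factor, fell by 0.29 (0.000917) and 0.41 (2.46e-05).

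Another list held 10 genes of interferon receptors, their kinases and regulators such as Socs1, Socs3 and Ptpn2. Of these, 7 were lower and 2 higher in knockout cells under siFEM1B (26.4% and 28.2% of all genes). Under siCTRL 4 were lower and 1 higher (26.3% and 24.2% of all). Ifngr1, which encodes the ligand-binding chain of the interferon gamma receptor, changed by −0.40 ± 0.06 under siCTRL (edgeR adjusted p = 1.21e-05). The kinase genes Jak2 and Tyk2 went the other way, Jak2 at 0.51 ± 0.08 under siCTRL (2.16e-05) and Tyk2 at 0.31 ± 0.06 under siFEM1B (0.000281). With siFEM1B, 5 rose and 1 fell in each line, where 21.9% of all genes rose and 19.8% fell in knockout cells and 22.1% rose and 22.9% fell in control cells. Ifngr2, the other receptor chain, rose by 0.52 ± 0.07 in knockout cells (4.45e-06) and 0.77 ± 0.07 in control cells (2.02e-08), while the kinase gene Jak1 changed by −0.33 ± 0.06 in knockout cells (0.000119). Socs3, a feedback inhibitor of cytokine signalling, was lower in knockout cells, at −0.60 ± 0.07 under siFEM1B (2.98e-07) and −0.55 ± 0.07 under siCTRL (1.45e-06), and rose with siFEM1B by 0.54 ± 0.07 in knockout cells (4.49e-06) and 0.59 ± 0.07 in control cells (7.52e-07).

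Of 8 class II genes 3 were tested, and 2 of them, H2-DMb1 and Cd74, were lower in knockout cells under each siRNA, while 1 was higher under siFEM1B and 0 under siCTRL. Of all tested genes 26.4% were lower and 28.2% higher under siFEM1B, and 26.3% lower and 24.2% higher under siCTRL. Cd74 averaged 0.822 and 0.118 CPM in knockout cells with siFEM1B and siCTRL, against 5.89 and 0.780 CPM in control cells. Only control cells with siFEM1B reached the higher minimum count tried, so its changes are a description. Its fitted values in knockout over control cells were −2.87 ± 0.34 under siFEM1B and −2.71 ± 0.62 under siCTRL. For siFEM1B over siCTRL they were 2.72 ± 0.63 in knockout cells and 2.89 ± 0.33 in control cells. The numbers of lower class II genes given here include Cd74.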

How the data were processed

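The submitters deposited 1 table of whole-number counts per gene symbol and library, not normalized. Per the labels' protocols the libraries came from a stranded mRNA kit. Per the submitters' processing notes, the tools were SAMtools 1.9, featureCounts 1.6.4, Subread and DESeq2 1.26.0, and the build was mm10, with no role or order given. The annotation, the strand setting and the handling of reads that fit several genes were not given in the sources used here, which limits the values of near-identical genes such as the class I heavy chains.

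All 12 count columns were used. Of 24421 symbols 6056 had no count, and 13281 passed filterByExpr of edgeR (minimum count 10). Counts were scaled with TMM factors (0.989 to 1.01) and tested by the two-sided quasi-likelihood test of edgeR 4.0.16 (R 4.3.3), as 1 model with a mean for each of the 4 groups and 8 residual degrees of freedom. Benjamini-Hochberg adjustment ran over all tested genes, with calls under 0.05. Each approximate SE was taken from the log2 fold change and the square root of F. The 4 pairwise comparisons and the interaction were tested. Psmb10 ratios used log2 of counts plus 0.5 and exact permutation tests, and the ratios planned for Psmb8 and Psmb9 are given only as limits, since the counts were at or under 3. Intervals and limits cover counting error only. The script was tested on simulated counts. No pair of replicates agreed within sampling noise (chi-square of 2.50 to 13.5 per degree of freedom).

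The genes, lists and tests were chosen with earlier results of these data known. By rule all 10 genes are named, with up to 4 genes of the smallest p of each other list, the 5 genes most like Nlrc5 and H2-K1, and the neighbours of Nlrc5, Psmb9 and Tap1. Not every gene of that rule is given, some items are not reported here, and examples whose calls held under the alternatives were preferred. The alternatives were RLE size factors, DESeq2 1.42.0, no count filter, a minimum count of 50, removal of chromosome medians, only the 6 libraries compared, a replicate block, another pseudocount or denominator, and leaving out each library.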

Additional observations from a re-analysis of the deposited data

Results flagged for a closer look

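H2-K1 stood out because its response to FEM1B siRNA differed between the lines: the rise in knockout cells less the rise in control cells was −0.76 on the log2 scale, tested as an interaction with edgeR (adjusted p = 0.00356, n = 3 per group). The rise with siFEM1B was 0.40 in knockout cells and 1.15 in control cells. H2-K1 was the highest in replicate 2 of the knockout cells with siFEM1B, and the interaction was called with and without that library.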

How the results depend on the processing

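The genes called in the main test numbered 7246 and 6702 for knockout over control under siFEM1B and siCTRL, 5539 and 5981 for siFEM1B over siCTRL in knockout and control cells, and 807 for the interaction. The following counts include Nlrc5, whose values between the lines are a description. Over the alternatives, 642 of the values of the tested class I genes kept their direction and side of the threshold. Of the others, 9 newly passed it, 7 no longer passed it and 0 changed sign. For the interaction, 2 of these genes were called (B2m beside H2-K1) with RLE size factors, with DESeq2, without a count filter and with chromosome medians removed, and 1 to 2 when single libraries were left out. Without a count filter the interaction had 1393 genes called, and leaving out single libraries gave 298 to 1868, with the highest count without replicate 2 of the knockout cells with siFEM1B and the lowest without replicate 1 of that group. With the sum of Psmb5, Psmb6 and Psmb7 in place of Psmb7, the log2 ratio of Psmb10 in knockout minus control cells was −0.50 under siFEM1B and −0.46 under siCTRL. The cause of these changes was not tested.

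The replicate numbers did not pair the libraries: the deviations of the 18 same-numbered pairs correlated at −0.115 to 0.0788, against −0.144 to 0.135 for other pairs, and 2 of 12 libraries correlated best with their own number. With the replicate number as a block, 7031, 6488, 5298, 5749 and 603 genes were called in the 5 comparisons in that order. Each of the 6 class I genes other than Nlrc5 was called or not called there as in the main test. The interaction for H2-K1 was −0.76 (edgeR adjusted p = 0.00707). The change of Nlrc5 with siFEM1B in knockout cells rests on 14 against 4 counts, and the counts of Tap1, Psmb8 and Psmb9 are too few to show changes at this depth.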

Other observations

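Of 13 other genes of the NLR family, 5 were tested, and 3 were lower and 1 higher in knockout cells under siFEM1B (26.4% and 28.2% of all tested genes), and 3 lower and 0 higher under siCTRL (26.3% and 24.2% of all). Naip2, a sensor of bacterial secretion system proteins, changed by −2.86 ± 0.20 under siFEM1B (edgeR adjusted p = 4.10e-10) and −2.64 ± 0.19 under siCTRL (5.41e-10). Nlrp6, an inflammasome gene of the gut epithelium, did not pass the higher minimum count tried, so its difference between the lines is a description. Its fitted values were −3.62 ± 0.51 and −3.71 ± 0.73 in the same order, and the numbers of lower genes given here include it. Nlrx1, a mitochondrial NLR gene, was higher in knockout cells under siFEM1B, at 0.91 ± 0.15 (3.25e-05), and fell with siFEM1B in control cells by 0.75 (0.000347).

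Of 10 tested ligands by which NK cells and T cells read a cell, 0 were higher and 5 lower in knockout cells under siFEM1B (28.2% and 26.4% of all genes), and 0 higher and 2 lower under siCTRL (24.2% and 26.3% of all). With siFEM1B, 2 rose and 0 fell in knockout cells (21.9% and 19.8% of all), and 6 rose and 0 fell in control cells (22.1% and 22.9% of all). Lgals9, which encodes galectin-9, changed by −1.64 ± 0.08 under siFEM1B (edgeR adjusted p = 1.38e-12) and −2.12 ± 0.09 under siCTRL (7.98e-14). Cd274, which encodes the checkpoint ligand PD-L1, rose with siFEM1B in control cells by 1.36 ± 0.23 (7.01e-05), and its effect in knockout minus control cells was −1.55 ± 0.36 (0.0156). Pvr, the poliovirus receptor and a ligand of the NK receptor DNAM-1, rose by 0.27 ± 0.07 in knockout cells (0.00291) and 0.70 ± 0.07 in control cells (7.99e-08), with an interaction of −0.43 ± 0.09 (0.0119). Ulbp1, a ligand of the NK receptor NKG2D, did not pass the higher minimum count tried, so its difference between the lines is also a description. Its fitted values in knockout over control cells were −3.55 ± 0.82 under siFEM1B and −4.45 ± 1.04 under siCTRL. The numbers of lower ligands given here include Ulbp1.

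The spacing of 25 bases between TGACG and ATTGG occurred in the promoters of 27 genes, of which 21 were tested. Beside B2m, H2-K1, H2-D1 and H2-M3, these include Trim26, which was higher in knockout cells under siCTRL, at 0.58 (edgeR adjusted p = 5.15e-07), and Calu, which was lower, at −0.34 (7.21e-05), both chosen after their values were seen.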
